A study of Mus musculus with 15 samples.

Results

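The E2F transcription factors and their DP partners were followed in 5 groups of mouse samples: an LCNEC line, an SCLC line, the tumors each line formed after grafting, and normal lung. All rows of the deposited expression matrix named E2f1 to E2f8, Tfdp1 or Tfdp2 were taken, which gave 10 genes of the 55359 listed. The RNA of 15 samples was sequenced, 3 in each group. 46LCNEC_cell is a line of large cell neuroendocrine carcinoma that grew as an adherent monolayer, and 57SCLC_cell a line of small cell lung cancer that grew as floating aggregates.

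Both lines came from lung tumors of QKO mice, which carry the alleles Rb1 F/F, Rbl1-/- and Trp53 F/F among their engineered tumor suppressors. Cre recombinase was delivered to the airways by adenovirus, under the CMV promoter (Ad-CMVcre) for 46LCNEC and under the keratin K5 promoter (Ad-K5cre) for 57SCLC. The 3 samples of a line were dishes (46LCNEC_cell, A, B and C) or flasks (57SCLC_cell, A, B and C) of 1 line, so their spread is that of cultures and not of independent tumors. The allografts were subcutaneous tumors that formed after cells in Matrigel were injected into immunocompetent QKO mice, tumors 312, 319 and 321 for 46LCNEC_allo and tumors 275, 316 and 317 for 57SCLC_allo. Lung was normal tissue of littermates of the grafted mice (CT3, CT4 and CT5). The Rbl1 null allele belongs to the germline of the QKO stock, and therefore the lungs and the host cells of the allografts are described as carrying it too. Neither the age of the mice nor their strain is given in the sources used here.

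E2F proteins bind DNA at the promoters of genes needed for DNA replication and cell division. E2F1, E2F2 and E2F3 are the activators of the family, bind DNA as dimers with a DP protein (Tfdp1 encodes DP1 and Tfdp2 encodes DP2), and are held inactive by the retinoblastoma protein, the product of Rb1. E2F4 and E2F5 work mainly as repressors with the related pocket proteins p107 (Rbl1) and p130 (Rbl2), and E2F6 represses without any pocket protein, as part of a Polycomb complex. E2F7 and E2F8 are atypical members that bind DNA without a DP partner and repress E2F targets late in S phase. Loss of RB1 is a hallmark of SCLC, and in cells without it the activator E2Fs lose their main restraint.

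Several E2F genes are known to be targets of E2F proteins themselves. For this reason the start regions of the genes, given here for those other than E2f8, were read from GRCm39, the build of the counts, as 250 bases before and 30 bases from the start of the canonical GENCODE transcript. A core E2F motif of 8 bases was searched in 4 spellings, TTTCCCGC, TTTCGCGC, TTTGGCGC and TTTGCCGC, and as their reverse complements GCGGGAAA, GCGCGAAA, GCGCCAAA and GCGGCAAA. It was found in 560 of 21770 such windows of protein-coding genes (2.57%), and 2 or more times in 21 of them (0.0965%). Of the genes given, E2f1 held 2 matches, E2f3 and E2f7 held 1 each, and E2f2, E2f4, E2f5, E2f6, Tfdp1 and Tfdp2 held none. The windows of the 3 of these genes with a match are printed first, and that of E2f2, the gene that differed most between the lines, last, each 5' to 3' on the strand of its gene with the matches in capitals.
E2f1 (chr2:154411783-154412062, minus strand): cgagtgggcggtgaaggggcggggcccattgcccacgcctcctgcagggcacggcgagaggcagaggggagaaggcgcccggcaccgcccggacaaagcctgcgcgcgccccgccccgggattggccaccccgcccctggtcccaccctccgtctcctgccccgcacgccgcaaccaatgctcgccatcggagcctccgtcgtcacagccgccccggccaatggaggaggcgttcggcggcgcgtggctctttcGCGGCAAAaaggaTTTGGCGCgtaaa
E2f3 (chr13:30170017-30170296, minus strand): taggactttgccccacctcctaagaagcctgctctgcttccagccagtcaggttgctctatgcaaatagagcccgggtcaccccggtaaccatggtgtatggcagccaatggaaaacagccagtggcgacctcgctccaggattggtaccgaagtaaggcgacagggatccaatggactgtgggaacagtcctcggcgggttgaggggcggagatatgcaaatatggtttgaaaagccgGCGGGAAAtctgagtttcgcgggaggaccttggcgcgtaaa
E2f7 (chr10:110581056-110581335, plus strand): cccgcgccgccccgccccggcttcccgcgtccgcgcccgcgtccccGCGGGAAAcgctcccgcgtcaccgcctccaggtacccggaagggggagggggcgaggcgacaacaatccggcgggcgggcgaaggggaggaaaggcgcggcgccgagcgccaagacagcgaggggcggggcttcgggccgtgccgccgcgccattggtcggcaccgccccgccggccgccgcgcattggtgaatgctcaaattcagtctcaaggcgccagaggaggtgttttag
E2f2 (chr4:135899335-135899614, plus strand): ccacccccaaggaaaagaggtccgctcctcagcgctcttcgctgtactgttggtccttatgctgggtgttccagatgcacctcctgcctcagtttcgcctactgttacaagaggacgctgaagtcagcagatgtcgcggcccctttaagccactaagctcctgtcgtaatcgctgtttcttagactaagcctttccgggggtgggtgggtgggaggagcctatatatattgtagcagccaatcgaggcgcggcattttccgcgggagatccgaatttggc
The matches in E2f1 begin at bases 5 and 18 of the transcript. Those of E2f3 and E2f7 begin 11 and 204 bases before the start. A match describes the letters of the window and not a bound site, and other E2F sites can be spelled differently. The window of E2f2 ends in the opening letters of the spelling TTTGGCGC, and a match that crosses the end of a window was not searched.

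Depth ranged from 9480244 to 44876572 reads counted per sample, and all replicate pairs differed by more than counting noise (chi-square per degree of freedom 2.80 to 144). Flask C of 57SCLC_cell stood apart from flasks A and B (144 and 127, against 2.80 between A and B), and the ribosomal gene Rn18s-rs5 took 4.63% of its reads against 1.08% and 1.15%. This share was higher still in tumors 312, 319 and 321 of 46LCNEC_allo (11.5%, 6.69% and 8.73%) and in tumor 316 (5.85%). It was 1.96% and 4.06% in tumors 275 and 317, 2.49% to 3.21% in 46LCNEC_cell and 1.82% to 2.04% in Lung. Its part in the differences between groups was not tested. The labels were checked against markers. The neuroendocrine markers Chga, Syp, Calca and Ncam1 were high in 57SCLC_cell and 57SCLC_allo, whereas in 46LCNEC_cell and 46LCNEC_allo only Ncam1 was (28614 to 31510.0 and 3058 to 7384 normalized counts). Sstr2 was listed at 0 in all samples, which is not read as a lack of expression. The 6 lung epithelial markers summed to 348240 to 456457 normalized counts in Lung and to 126 to 551 in the other groups. In bulk RNA, fewer cells of a type and less RNA per cell cannot be told apart.

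The values are normalized counts, that is reads divided by the size factor of the sample. A gene counts as called where limma's p, adjusted by Benjamini-Hochberg over all tested genes, did not exceed 0.01 and the difference reached 2-fold (log2 fold change of 1). All 10 genes passed the filter on low values in all comparisons. Against Lung, 7 of the 10 were called in 46LCNEC_cell (5 higher and 2 lower) where 55.6% of all genes were, 6 in 46LCNEC_allo (5 higher and 1 lower; 35.6% of all genes), 7 in 57SCLC_cell (all higher; 53.8%) and 6 in 57SCLC_allo (all higher; 45.8%). In the same order, 20.6%, 13.4%, 21.1% and 18.9% of all genes were called higher, and 35.0%, 22.1%, 32.7% and 26.9% lower. The 4 comparisons share the 3 Lung samples, so that their calls are not independent of each other. Between the lines, 2 members were higher in 57SCLC_cell than in 46LCNEC_cell (46.1% of all genes were called, 23.9% higher) and 3 were higher in 57SCLC_allo than in 46LCNEC_allo (30.4%, and 16.1% higher), with none lower. Both counts depended on the scaling of the samples: scaling by total counts, which moved the median of all genes by 0.23 and 0.26 on the log2 scale toward 57SCLC, gave 4 and 5.

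**Figure D1:**
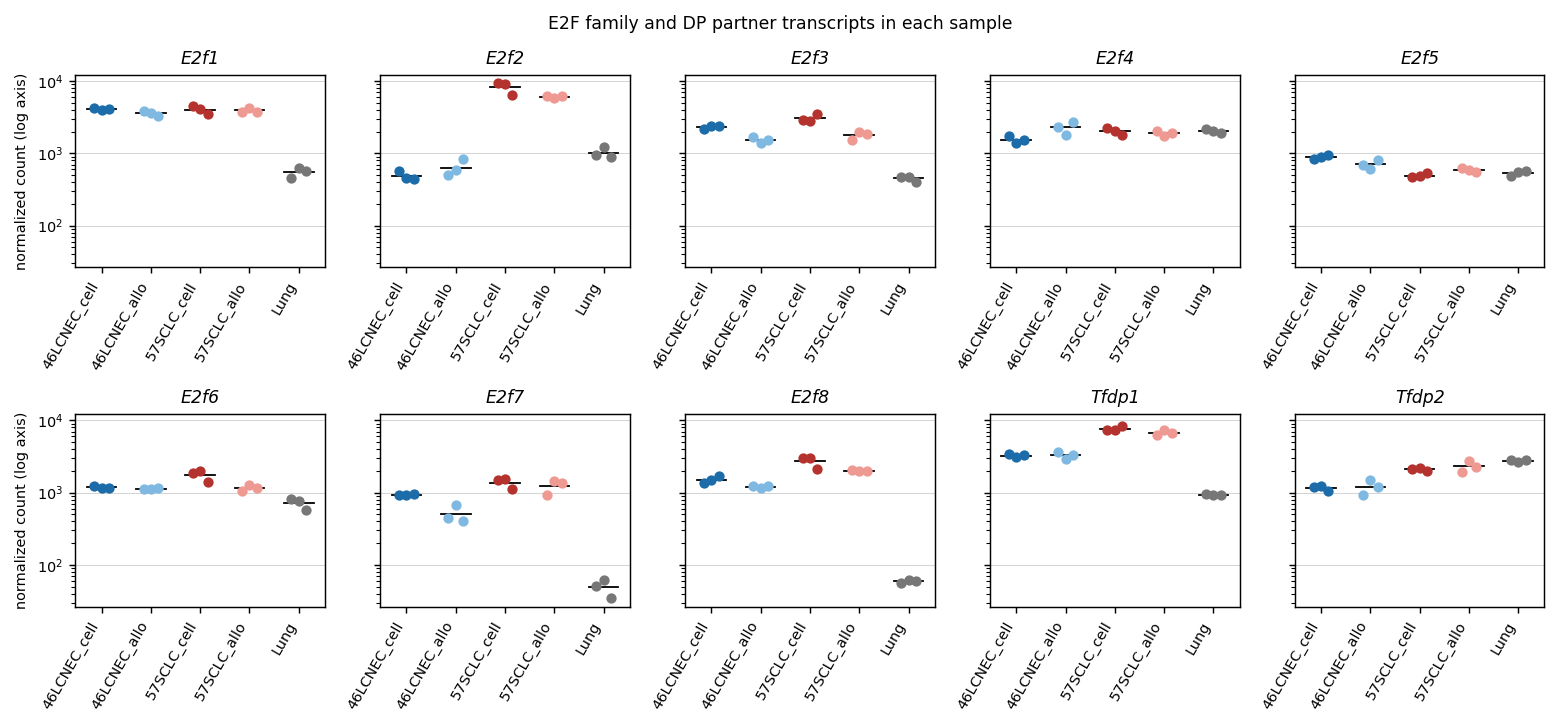
Normalized count (log axis) of each of the 10 genes in the 15 samples, with points for samples, in the order A, B, C or of rising tumor or mouse number, and a line at the group mean. E2f7 and E2f8 lie between 35.1 and 62.8 in Lung and at 402 or above in all other samples, and E2f2 lies at 5804 or above in both 57SCLC groups and at 825 or below in both 46LCNEC groups.

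The activators differed in where they were high. E2f1 (ENSMUSG00000027490, chromosome 2, 154401326 to 154411812, minus strand) had 4212, 3951 and 4102 normalized counts in dishes A, B and C of 46LCNEC_cell and 3862, 3676 and 3262 in tumors 312, 319 and 321. It had 4529, 4052 and 3469 in flasks A, B and C of 57SCLC_cell and 3727, 4295 and 3795 in tumors 275, 316 and 317, against 450.0, 630.3 and 569 in the lungs CT3, CT4 and CT5. The 12 samples of both lines therefore lay in 1 narrow range far above all 3 lungs, and the ranges of neighbouring groups other than Lung overlapped. The log2 fold change against Lung was 2.91 (SE 0.12, adjusted p = 2.7e-08) in 46LCNEC_cell, 2.72 (SE 0.15, adjusted p = 2.3e-05) in 46LCNEC_allo, 2.87 (SE 0.15, adjusted p = 8.5e-07) in 57SCLC_cell and 2.85 (SE 0.13, adjusted p = 7.0e-07) in 57SCLC_allo. Between the lines E2f1 did not pass the test, with 0.13 (SE 0.11) between the allografts and -0.03 (SE 0.10) between the cells, a sign that turned with scaling by total counts. Over the 15 samples, the genes whose values followed E2f1 most closely among 13695 were Troap (r = 0.996), Cdca3 (r = 0.996) and the predicted gene Gm1859 (r = 0.995). These correlations describe 5 groups with Lung at the low end of each.

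E2f2 (ENSMUSG00000018983, chromosome 4, 135899585 to 135923368, plus strand) separated the lines. It had 9333, 9070.1 and 6371 normalized counts in the flasks of 57SCLC_cell and 6229, 5804 and 6215 in tumors 275, 316 and 317. In 46LCNEC_cell it had 566, 457 and 439.8, in tumors 312, 319 and 321 it had 502, 579.9 and 825, and in Lung 948, 1233 and 886. All 57SCLC samples thus lay above all lungs, and all 46LCNEC samples below them. The level was 16.8 times higher in 57SCLC_cell than in 46LCNEC_cell (log2 4.07, SE 0.16, adjusted p = 1.8e-07) and 9.76 times higher in 57SCLC_allo than in 46LCNEC_allo (log2 3.29, SE 0.18, adjusted p = 2.5e-05). Against Lung, E2f2 rose by 3.01 (SE 0.18, adjusted p = 1.9e-06) on the log2 scale in 57SCLC_cell and by 2.59 (SE 0.12, adjusted p = 8.5e-07) in 57SCLC_allo. It was lower than in Lung in 46LCNEC_cell (log2 -1.06, SE 0.15, adjusted p = 0.00011), a difference close to the 2-fold threshold that fell short of it with upper quartile scaling (-0.91), DESeq2 (-0.98) and edgeR (-0.94), without dish C (-0.99) and without lung CT4 (-0.92). In 46LCNEC_allo it was not called (log2 -0.70, SE 0.22, adjusted p = 0.030). The genes most like E2f2 over the 15 samples were Ypel1 (r = 0.994), the transporter gene Slc6a17 (r = 0.994) and B3gat1 (r = 0.994), which makes the CD57 carbohydrate epitope; B3gat1 had a mean of 3636 normalized counts in 57SCLC_cell and 0 in 46LCNEC_cell.

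E2f3 (ENSMUSG00000016477, chromosome 13, 30090558 to 30170046, minus strand) was higher than in Lung in all comparisons and tended to lower values in the allografts than in the cells. Its values were 2147, 2395 and 2425 in 46LCNEC_cell, 1709, 1370.4 and 1533 in tumors 312, 319 and 321, 2858, 2839 and 3459 in 57SCLC_cell, 1544, 1985 and 1867 in tumors 275, 316 and 317, and 467, 474 and 407 in Lung. All cell samples lay above all allografts, and these above all lungs. Log2 fold changes against Lung were 2.37 (SE 0.09), 1.77 (SE 0.13), 2.76 (SE 0.11) and 1.99 (SE 0.12) in 46LCNEC_cell, 46LCNEC_allo, 57SCLC_cell and 57SCLC_allo, with adjusted p of 2.0e-08, 6.1e-05, 1.9e-07 and 2.5e-06. The allografts differed from their cells by -0.60 (SE 0.12, adjusted p = 0.0043) for 46LCNEC and by -0.76 (SE 0.12, adjusted p = 0.0015) for 57SCLC, both under the p threshold and short of 2-fold. Genes of DNA repair and replication were the most like E2f3, namely Fancd2 (r = 0.991) and Rfc4 (r = 0.983), followed by the cyclin-dependent kinase inhibitor gene Cdkn3 (r = 0.983). An uncharacterized gene on the other strand, Gm60559, covers 12.1% of the exon bases of E2f3, and the strand setting of the counting is not given in the sources used here.

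**Figure D2:**
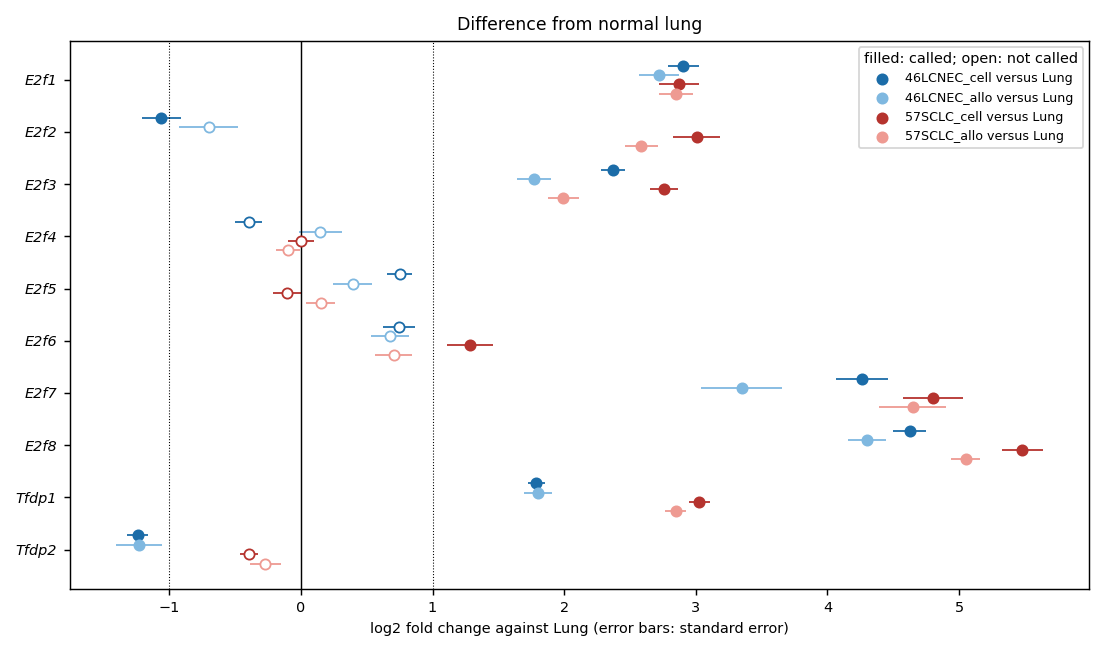
Log2 fold change of each of the 10 genes against Lung in the 4 other groups, with the standard error as bars, filled points for called genes and dotted lines at 2-fold. E2f7 and E2f8 lie farthest to the right (3.35 to 5.48), E2f2 lies to the right in the 57SCLC groups (3.01 and 2.59) and to the left in the 46LCNEC groups (-1.06 and -0.70), and E2f4 lies between -0.40 and 0.15, its sign in 57SCLC_allo turning with total count scaling.

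E2f4 and E2f5, of the repressor class, were not called in any comparison. E2f4 (ENSMUSG00000014859, chromosome 8, 106024243 to 106032003, plus strand) had 1765, 1385 and 1513 normalized counts in 46LCNEC_cell, 2299, 1816 and 2748 in tumors 312, 319 and 321, 2250.2, 2065 and 1817 in 57SCLC_cell, 2071, 1751 and 1887 in tumors 275, 316 and 317, and 2194, 2031 and 1889 in Lung. The ranges of neighbouring groups overlapped from the highest group to the lowest. The widest log2 difference between groups was 0.54 (SE 0.17, adjusted p = 0.031), between 46LCNEC_allo and 46LCNEC_cell, and the smallest adjusted p that of 46LCNEC_cell against Lung (-0.40, SE 0.10, adjusted p = 0.0055).

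E2f5 (ENSMUSG00000027552, chromosome 3, 14643676 to 14672404, plus strand) was highest in 46LCNEC_cell, with 848, 896 and 939 normalized counts, followed by 697, 606 and 804 in tumors 312, 319 and 321. 57SCLC_cell and 57SCLC_allo did not overlap each other and each overlapped Lung, with 472, 479 and 529.9 in 57SCLC_cell, 629.6, 580.4 and 559 in tumors 275, 316 and 317 and 479.9, 554 and 564 in Lung. 57SCLC_cell lay 0.86 (SE 0.09, adjusted p = 4.7e-05) below 46LCNEC_cell on the log2 scale, and 46LCNEC_cell 0.75 (SE 0.10, adjusted p = 6.6e-05) above Lung, both short of 2-fold. The small difference of 57SCLC_cell from Lung (-0.11, SE 0.11) turned its sign with upper quartile scaling and with scaling by total counts. Exon bases shared with Rbis, on the other strand, make up 43.4% of the E2f5 exons, so the count may hold reads of Rbis. Jam3 (r = 0.955), Cacng7 (r = 0.952) and Med10 (r = 0.951) were the most like E2f5, with Cacng7 at a mean of 1374 in 46LCNEC_cell and 33.7 in 57SCLC_cell.

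E2f6 (ENSMUSG00000057469, chromosome 12, 16860874 to 16890766, plus strand) was above Lung in all groups but passed both thresholds in 57SCLC_cell only. It had 1887, 1974 and 1390.2 normalized counts in 57SCLC_cell, 1237, 1160.0 and 1178 in 46LCNEC_cell, 1132, 1131 and 1146 in tumors 312, 319 and 321, 1051, 1259.9 and 1173 in tumors 275, 316 and 317, and 813, 758 and 582 in Lung. All other samples lay above the lungs. The difference from Lung was 1.28 (SE 0.17, adjusted p = 0.00024) in 57SCLC_cell, against 0.74 (SE 0.12), 0.68 (SE 0.14) and 0.70 (SE 0.14) in 46LCNEC_cell, 46LCNEC_allo and 57SCLC_allo, with adjusted p of 0.00038, 0.0065 and 0.0023. Of 10 partners of E2F6 in the Polycomb complex PRC1.6, Pcgf6, its defining subunit, rose against Lung in 57SCLC_cell (log2 2.48, SE 0.11, adjusted p = 3.5e-07) and 57SCLC_allo (log2 2.42, SE 0.14, adjusted p = 1.8e-06). Pcgf6 had 1983, 1947 and 1871 normalized counts in the flasks and 1688, 2147 and 1754 in tumors 275, 316 and 317, against 802, 818 and 828 in 46LCNEC_cell, 566, 517 and 462 in tumors 312, 319 and 321 and 336, 399 and 307 in Lung. It was higher in 57SCLC than in 46LCNEC both between cells (log2 1.24, SE 0.07, adjusted p = 9.7e-07) and between allografts (log2 1.85, SE 0.14, adjusted p = 7.4e-05). Yaf2, another subunit, had 1988, 1822 and 1899 in tumors 312, 319 and 321 and 977, 953 and 953 in Lung, a difference just short of 2-fold (log2 0.98, SE 0.09, adjusted p = 0.00013). Of the whole list, 3 genes rose and 1 fell in 57SCLC_cell against Lung, 2 rose and none fell in 57SCLC_allo, 2 rose and 1 fell in 46LCNEC_cell, and 1 fell in 46LCNEC_allo. These counts of 10 stand beside 53.8%, 45.8%, 55.6% and 35.6% of all genes called, so they do not set the list apart.

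The atypical members showed the largest differences from Lung. E2f7 (ENSMUSG00000020185, chromosome 10, 110581300 to 110623245, plus strand) had 928, 934 and 955 normalized counts in 46LCNEC_cell, 452, 682 and 402 in tumors 312, 319 and 321, 1478, 1525 and 1131 in 57SCLC_cell and 936, 1444 and 1371 in tumors 275, 316 and 317. In Lung it had 50.8, 61.8 and 35.1. E2f8 (ENSMUSG00000046179, chromosome 7, 48516176 to 48531452, minus strand) had 1364, 1481 and 1677 in 46LCNEC_cell, 1226, 1147 and 1218 in tumors 312, 319 and 321, 3063, 3043 and 2151 in 57SCLC_cell, 2087, 1971 and 1989 in tumors 275, 316 and 317, and 56.1, 62.8 and 60.9 in Lung. Every line and tumor sample stood many times above every lung for both genes, and for E2f8 no group overlapped the next in the order 57SCLC_cell, 57SCLC_allo, 46LCNEC_cell, 46LCNEC_allo and Lung.

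E2f8 was 44.7 times as high in 57SCLC_cell as in Lung (log2 5.48, SE 0.16, adjusted p = 4.6e-08) and 33.1 times in 57SCLC_allo (log2 5.05, SE 0.11, adjusted p = 4.2e-08). In 46LCNEC_cell it was 24.7 times as high (log2 4.63, SE 0.12, adjusted p = 2.8e-09) and in 46LCNEC_allo 19.7 times (log2 4.30, SE 0.14, adjusted p = 5.8e-06). E2f7 stood 27.9, 25.1, 19.2 and 10.2 times above Lung in 57SCLC_cell, 57SCLC_allo, 46LCNEC_cell and 46LCNEC_allo, with adjusted p of 5.0e-07, 1.7e-06, 6.8e-08 and 0.00016. Between the allografts E2f7 was higher in 57SCLC_allo (log2 1.30, SE 0.25, adjusted p = 0.0047), a call that was lost without tumor 312, 321, 316 or 317 (adjusted p 0.012 to 0.023). E2f8 was 0.85 (SE 0.15, adjusted p = 0.0010) higher in 57SCLC_cell than in 46LCNEC_cell and 0.75 (SE 0.09, adjusted p = 0.00047) higher in 57SCLC_allo than in 46LCNEC_allo, both short of 2-fold. Without flask C the difference between the cells reached 1.02. Ticrr, which fires replication origins, and the mitotic kinesin gene Kifc1 were the most like E2f7 (r = 0.993 and 0.992), with Sapcd2 next (r = 0.991). The helicase gene Pif1, Ccnf, whose product cyclin F marks E2F proteins for destruction, and the histone chaperone gene Asf1b were the most like E2f8 (r = 0.995 each). The predicted gene Gm2788, on the other strand, shares 20.2% of the exon bases of E2f8.

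The DP partners moved apart. Tfdp1 (ENSMUSG00000038482, chromosome 8, 13388555 to 13428448, plus strand) had 7273, 7307 and 8493 normalized counts in 57SCLC_cell and 6259.8, 7354 and 6729 in tumors 275, 316 and 317, 3381, 3102 and 3277 in 46LCNEC_cell and 3652, 2914 and 3323 in tumors 312, 319 and 321, and 957, 940.5 and 924 in Lung. The 57SCLC samples lay above all 46LCNEC samples, and these above all lungs. The log2 fold change against Lung was 3.03 (SE 0.08, adjusted p = 3.6e-08) in 57SCLC_cell, 2.85 (SE 0.08, adjusted p = 8.4e-08) in 57SCLC_allo, 1.79 (SE 0.07, adjusted p = 1.8e-08) in 46LCNEC_cell and 1.80 (SE 0.11, adjusted p = 3.0e-05) in 46LCNEC_allo. Between the lines it was 1.24 (SE 0.08, adjusted p = 3.7e-06) in cells and 1.04 (SE 0.12, adjusted p = 0.00043) in allografts, and the latter fell short of 2-fold without tumor 319 (0.96) or tumor 316 (0.98).

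Tfdp2 (ENSMUSG00000032411, chromosome 9, 96078150 to 96205699, plus strand) was highest in Lung, at 2801, 2631 and 2866 normalized counts. It had 2127, 2181 and 2000.3 in 57SCLC_cell, 1953, 2702 and 2285 in tumors 275, 316 and 317, 1213, 1244 and 1059 in 46LCNEC_cell and 921, 1479.9 and 1199 in tumors 312, 319 and 321. All 46LCNEC samples lay below all other samples, and tumor 316 reached into the range of Lung. Tfdp2 was lower than in Lung in 46LCNEC_cell (log2 -1.24, SE 0.08, adjusted p = 7.0e-07) and in 46LCNEC_allo (log2 -1.23, SE 0.18, adjusted p = 0.0011), while 57SCLC_cell (-0.40, SE 0.07, adjusted p = 0.0012) and 57SCLC_allo (-0.27, SE 0.12, adjusted p = 0.071) were not called. It was 0.85 (SE 0.09, adjusted p = 4.0e-05) higher in 57SCLC_cell than in 46LCNEC_cell and 0.96 (SE 0.20, adjusted p = 0.0065) higher in 57SCLC_allo than in 46LCNEC_allo, which passed 2-fold with scaling by total counts (1.08 and 1.223) and, for the allografts, without tumor 319 (1.13). Dtna (r = 0.972), Tspan2 (r = 0.970) and Fhdc1 (r = 0.970) were the most like Tfdp2 and were likewise highest in Lung.

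**Figure D3:**
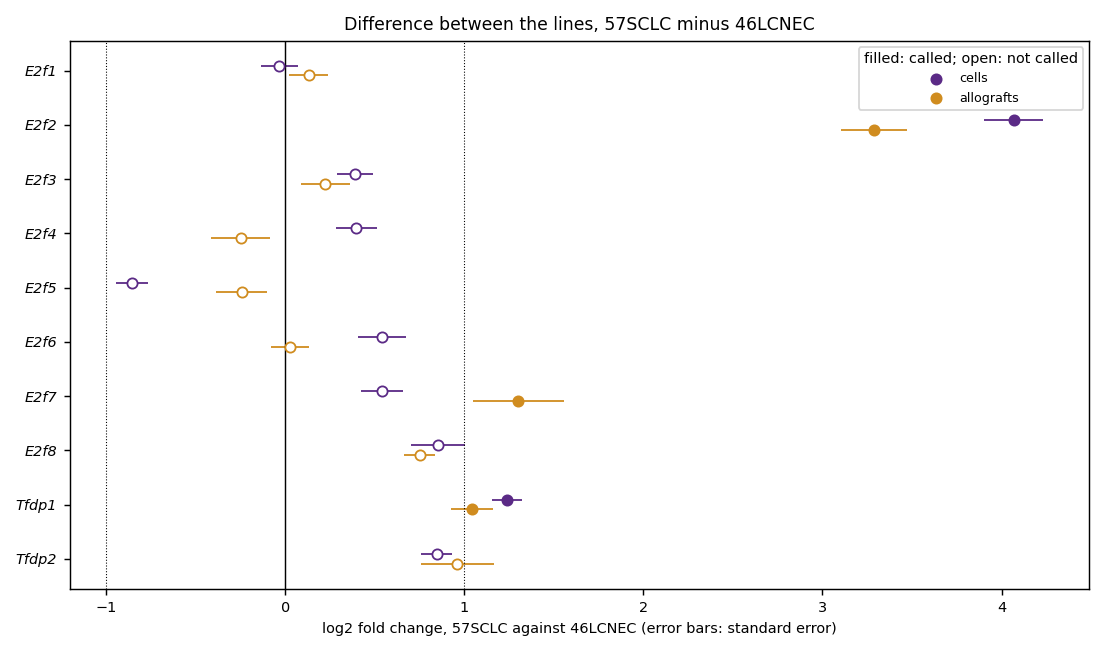
Log2 fold change of 57SCLC over 46LCNEC for each of the 10 genes, in cells and in allografts, with the standard error as bars, filled points for called genes and dotted lines at 2-fold. E2f2 lies far to the right (4.07 and 3.29), Tfdp1 just past 2-fold (1.24 and 1.04) and E2f7 past it in allografts (1.30), while E2f5 lies to the left (-0.86 in cells; -0.24 in allografts, where total count scaling turns the sign of E2f4 and E2f5).

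Levels of different genes can be compared only per length. Per kilobase of exon, E2f1 made up 44.2% ± 0.868 (SD, n = 3) of the reads of the 8 E2f genes in 46LCNEC_cell and 43.6% ± 4.18 in 46LCNEC_allo, with E2f2 at 3.65% ± 0.499 and 5.32% ± 1.38. In 57SCLC_cell E2f2 had the largest share, 35.3% ± 2.94, and E2f1 25.0% ± 0.854. In 57SCLC_allo they were close, at 32.4% ± 1.85 and 30.2% ± 1.83, and their order turned when the length of the canonical transcript was used in place of all exons (22.5% and 25.9%). E2f4 had the largest share in Lung, at 35.1% ± 3.08, and 7.64% ± 0.271 in 57SCLC_cell, whereas E2f7 and E2f8 had the smallest shares in Lung, 0.538% ± 0.114 and 1.07% ± 0.0728. The choice of length moved several shares by more than these SDs. With the canonical transcript E2f4 came to 47.7% in Lung and 15.1% in 57SCLC_cell, E2f1 to 34.1% in 46LCNEC_cell and E2f2 to 25.1% in 57SCLC_cell. Tfdp1 made up 47.5% of the DP reads per kilobase in Lung and 87.8% to 90.6% in the 4 other groups.

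**Figure D4:**
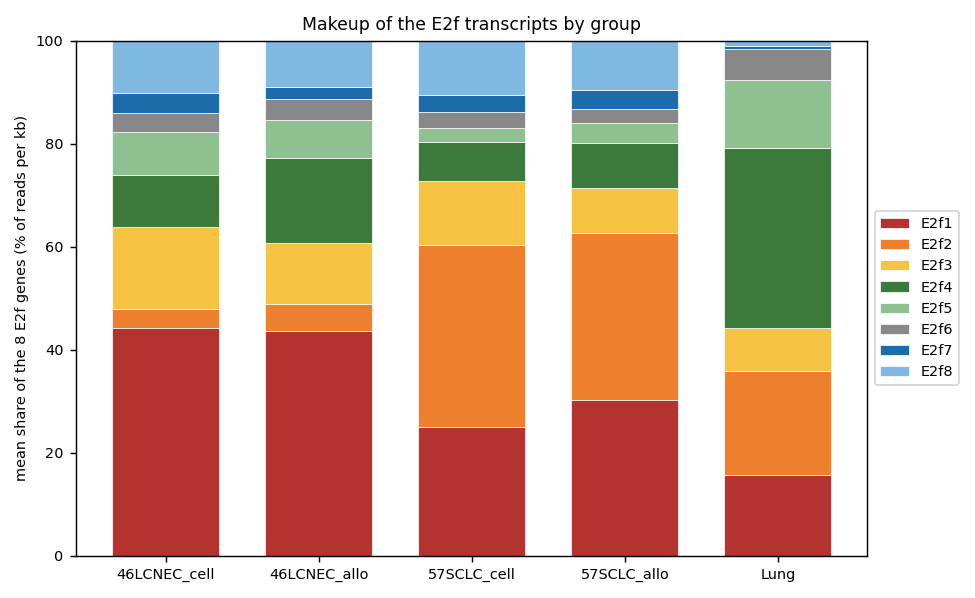
Mean share of each E2f gene in the reads per kilobase of exon of the 8 E2f genes, stacked to 100% in each group of 3 samples. The share of E2f4 is largest in Lung (35.1%), that of E2f1 in the 46LCNEC groups (44.2% and 43.6%) and that of E2f2 in 57SCLC_cell (35.3%).

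Growth as an allograft or in culture left the family without a call. None of the 10 genes was called between 46LCNEC_allo and 46LCNEC_cell, where 22.8% of all genes were, or between 57SCLC_allo and 57SCLC_cell, where 16.6% were. In limma at an unadjusted p under 0.05, 1 member was higher and 4 were lower in each case (E2f4 higher, and E2f3, E2f5, E2f7 and E2f8 lower, for 46LCNEC; E2f5 higher, and E2f2, E2f3, E2f6 and E2f8 lower, for 57SCLC), and DESeq2 and edgeR called 0 as well. E2f7 had the widest difference for 46LCNEC, -0.91 (SE 0.20, adjusted p = 0.0074) on the log2 scale, and was called without tumor 319 (-1.14). The difference between the lines was also compared between growth settings with an interaction term over 12 samples, where 17.5% of all genes were called, 10.8% higher and 6.78% lower. No member was called, by limma, DESeq2 or edgeR, and 5 had an unadjusted p under 0.05. The smallest adjusted p was that of E2f5 (log2 0.61, SE 0.17, adjusted p = 0.013), followed by E2f4 (-0.65, SE 0.21, adjusted p = 0.032), E2f2 (-0.78, SE 0.27, adjusted p = 0.037) and E2f6 (-0.51, SE 0.18, adjusted p = 0.040).

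Markers of host cells differed between these settings. The 5 leukocyte markers summed to 329 to 383 normalized counts in 46LCNEC_cell and 7234 to 12309 in 46LCNEC_allo, and to 231 to 256 in 57SCLC_cell and 2539.6 to 4261 in 57SCLC_allo, with Cd3e at 0 in all 6 cell samples. Cd68 held most of the sums in the cells (295 to 336 in 46LCNEC_cell and 225 to 254 in 57SCLC_cell). The 5 fibroblast markers summed to 22.4 to 27.8 in 57SCLC_cell and 30593 to 48039 in 57SCLC_allo, and to 67855 to 78009 in 46LCNEC_cell, where Col1a1 and Col1a2 held most of it, and 297715 to 666389 in 46LCNEC_allo. The 4 endothelial markers summed to 63.3 to 454 in the cells, 2415 to 8323 in the allografts and 73280 to 83138 in Lung. The part of these cells in the differences between allografts, cells and Lung was not tested, and that of the alveolar, endothelial and blood cells of Lung was not tested either.

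Flask C also moved several members. It had the lowest value of the 3 flasks for E2f1, E2f2, E2f4, E2f6, E2f7, E2f8 and Tfdp2 and the highest for E2f3, E2f5 and Tfdp1. Without it 7 members were called in 57SCLC_cell against Lung, as with it, and 3 in place of 2 against 46LCNEC_cell.

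The pocket proteins that bind E2Fs were read next, since Rb1 and Rbl1 are altered in the model. A gene count sums all exons, so reads outside the deleted part are counted and the level does not test the deletion. Rb1 had 66.6, 90.5 and 99.9 normalized counts in 46LCNEC_cell, 236, 183 and 289.8 in tumors 312, 319 and 321, 229, 236 and 777 in 57SCLC_cell, 244, 469 and 411 in tumors 275, 316 and 317 and 297, 247 and 329 in Lung. Only the dishes of 46LCNEC_cell lay below all lungs by a called difference (log2 -1.76, SE 0.20, adjusted p = 2.7e-05), and flask C lay far above the other flasks. Rb1 was also higher in 57SCLC_cell (log2 2.03, SE 0.45, adjusted p = 0.0038) and in 46LCNEC_allo (log2 1.45, SE 0.26, adjusted p = 0.0029) than in 46LCNEC_cell, both lost as calls without any 1 of the 3 dishes, and without flask C the former was 1.45. Rbl1 had 750.4, 868 and 872 in Lung, 1491, 1701 and 1664 in 46LCNEC_cell, 1172, 1735 and 1339 in tumors 312, 319 and 321, 2730.2, 2747 and 3166 in 57SCLC_cell and 2403, 2831 and 2560.1 in tumors 275, 316 and 317. It was thus higher in all other samples than in all lungs, with calls in 57SCLC_cell (log2 1.79, SE 0.10, adjusted p = 1.0e-06) and 57SCLC_allo (log2 1.65, SE 0.10, adjusted p = 2.3e-06); 46LCNEC_cell came to 0.96 (SE 0.09, adjusted p = 8.1e-06). Rbl2, the pocket protein gene that the QKO alleles leave intact, had 199, 174 and 151 in 46LCNEC_cell against 596, 421 and 413 in Lung (log2 -1.43, SE 0.18, adjusted p = 5.1e-05) and 477, 508 and 504 in 57SCLC_cell, where it was not called against Lung (0.08, SE 0.15), a difference that turned its sign without lung CT4 or CT5.

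The targets of E2F were read from lists of known genes. Of 30 genes of the G1/S transition and S phase, 28 were tested. Cdt1 and Tk1 were listed at 0 in all 15 samples, which is not read as a lack of expression. All 28 rose against Lung in 46LCNEC_cell and in 46LCNEC_allo, and 27 in 57SCLC_cell and in 57SCLC_allo, with Orc1 the exception. The median log2 fold change of the list was 3.65, 3.11, 3.79 and 3.41 in 46LCNEC_cell, 46LCNEC_allo, 57SCLC_cell and 57SCLC_allo, beside medians of -0.23, -0.14, -0.12 and -0.09 over all genes tested. Mcm2, a subunit of the replicative helicase, had 434, 478 and 399 normalized counts in Lung, 7323, 7595 and 6734 in tumors 275, 316 and 317 (log2 4.04, SE 0.09, adjusted p = 4.3e-08) and 5756, 3954 and 3800.0 in tumors 312, 319 and 321 (log2 3.34, SE 0.18, adjusted p = 2.2e-05). Mcm5, of the same helicase, had 281, 318 and 255 in Lung and 2623, 2444 and 2321 in tumors 312, 319 and 321 (log2 3.11, SE 0.12, adjusted p = 8.3e-06). Orc1, a subunit of the origin recognition complex, had 9.58, 49.5 and 45.4 in tumors 275, 316 and 317, 46.4, 53.1 and 74.5 in 57SCLC_cell, 187, 265 and 261 in 46LCNEC_cell, 72.8, 91.6 and 105 in tumors 312, 319 and 321 and 32.9, 33.9 and 22.2 in Lung. All 28 genes had higher values in both lines than in Lung except Orc1 in 57SCLC_allo, where tumor 275 lay below the lungs and tumors 316 and 317 above them. The value of tumor 275 rests on few reads, since 1 read counts 2.39 in this library, the one of lowest depth.

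Of 14 genes of G2 and mitosis, all 14 rose against Lung in each of the 4 groups, with medians of 4.75, 4.24, 5.14 and 4.65 in the same order. Aurka, the Aurora A kinase of the spindle poles, had 118, 105 and 123 normalized counts in Lung and 2454, 2245 and 2442 in tumors 275, 316 and 317 (log2 4.36, SE 0.10, adjusted p = 5.6e-08). Cenpe, a kinetochore motor, had 43.4, 49.9 and 63.2 in Lung and 1861, 2289 and 1976 in tumors 312, 319 and 321 (log2 5.28, SE 0.19, adjusted p = 6.4e-06).

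Between the lines the calls among targets were fewer than the share over all genes (46.1% in cells and 30.4% in allografts). For the G1/S list, 2 of 28 genes were higher (Ccne2 and Chek1) and 4 lower (Mcm10, Mcm4, Orc1 and Uhrf1) in 57SCLC_cell than in 46LCNEC_cell, and 3 were higher (Ccne1, Ccne2 and Chek1) and none lower in 57SCLC_allo than in 46LCNEC_allo, with list medians of -0.23 and 0.22 on the log2 scale. At an unadjusted p under 0.05, 6 of the 28 were higher and 13 lower in cells, and 11 higher and 3 lower in allografts. For the G2 and mitosis list the calls were 0 of 14 between cells and 1 (Ccnb1, higher) between allografts. In limma at an unadjusted p under 0.05, 7 of the 14 were higher and 3 lower between the cells, and DESeq2 and edgeR called 0. Between 46LCNEC_allo and 46LCNEC_cell, 13 of the 28 G1/S genes fell and 3 of the 14 G2 and mitosis genes did (Ccnb1, Cdc20 and Cdk1), where 8.45% of all genes were called lower. Without dish C, 8 of the 28 were called, and without tumor 319, 5 of the 14. In 57SCLC_allo against 57SCLC_cell, Rrm2, the small subunit of ribonucleotide reductase, was the only one of the 28 that fell (log2 -1.13, SE 0.11, adjusted p = 9.5e-05), from 5033, 4989 and 3932 in the flasks to 2238, 1985 and 2129 in tumors 275, 316 and 317, where 2.29% of all genes were called lower. None of the 14 was called there by limma, DESeq2 or edgeR, although 12 were lower at an unadjusted p under 0.05.

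**Figure D5:**
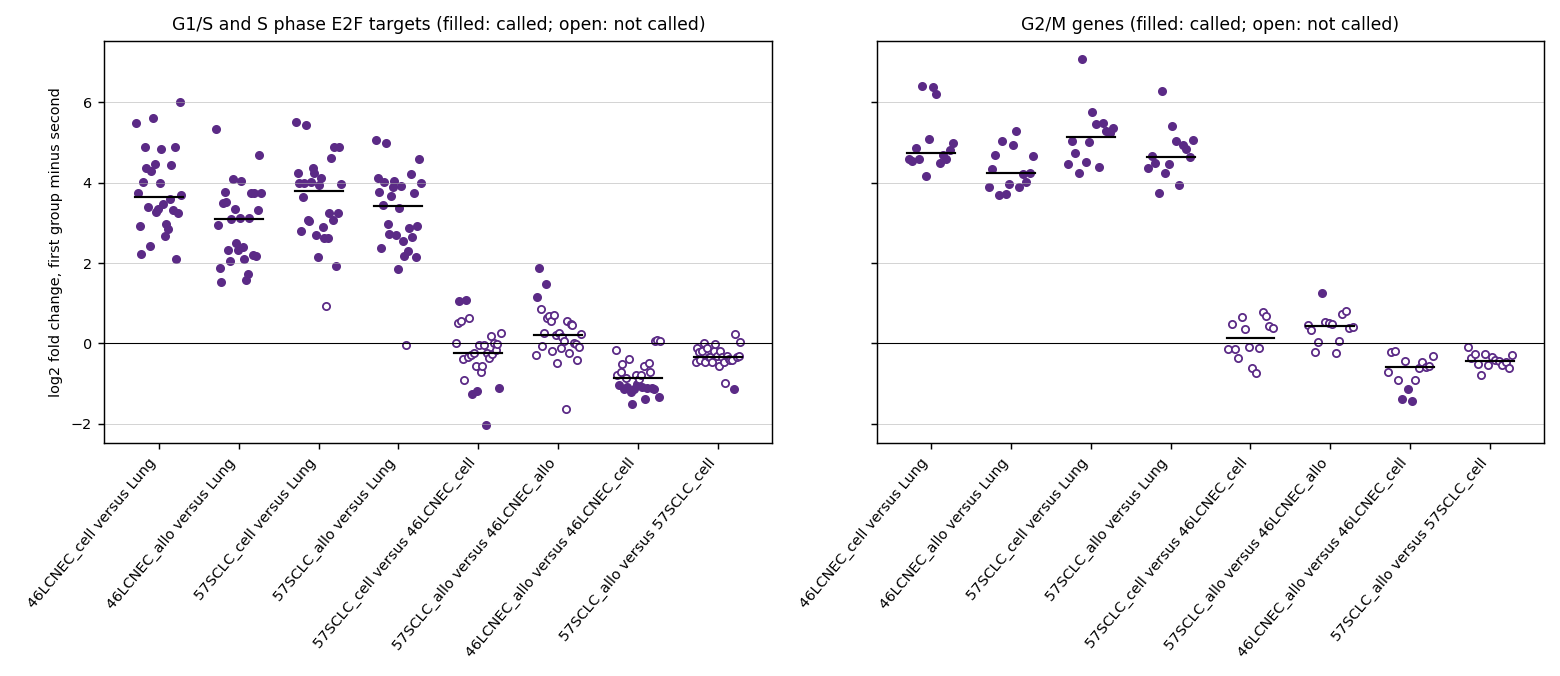
Log2 fold change of each gene of the G1/S and S phase list (28 genes) and the G2/M list (14 genes) in 8 comparisons, first group minus second, with filled points for called genes and a line at the median. In the 4 comparisons with Lung the medians lie between 3.11 and 5.14, and in the other 4 between -0.86 and 0.43.

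The complex that takes over from E2F later in the cell cycle is MuvB with B-Myb. Of its 6 genes, Lin9, Mybl2, Rbbp4 and Lin54 rose against Lung in 46LCNEC_cell, 46LCNEC_allo and 57SCLC_cell. Lin9, Mybl2 and Rbbp4 rose in 57SCLC_allo, and Lin37 fell in 46LCNEC_cell. In the order 46LCNEC_cell, 46LCNEC_allo, 57SCLC_cell and 57SCLC_allo, 20.6%, 13.4%, 21.1% and 18.9% of all genes were called higher. In either direction 55.6%, 35.6%, 53.8% and 45.8% were, beside 5, 4, 4 and 3 of the 6. Mybl2, which encodes B-Myb and is itself an E2F target, had 132, 92.8 and 114 normalized counts in Lung, 2558, 2573 and 3013 in 46LCNEC_cell and 1075, 1033 and 999 in tumors 312, 319 and 321 (log2 3.20, SE 0.17, adjusted p = 2.1e-05 against Lung). Lin9, the scaffold of the complex, had 179, 188 and 187 in Lung and 1271, 1529 and 1279 in tumors 275, 316 and 317 (log2 2.87, SE 0.11, adjusted p = 3.1e-07). Lin54, its DNA-binding subunit, had 1087 and 1083 in tumors 275 and 316 but 3833 in tumor 317, and its adjusted p of 0.011 in 57SCLC_allo missed the threshold in limma, while DESeq2 and edgeR each called 4 genes of the list there.

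All 3 genes that direct the turnover of E2F proteins rose against Lung in the 4 groups, where 13.4% to 21.1% of all genes were called higher. Skp2, of the ligase that degrades E2F1, had 171, 206 and 179 normalized counts in Lung and 2224, 2306 and 1979 in tumors 312, 319 and 321 (log2 3.54, SE 0.13, adjusted p = 6.6e-06). Ccnf had 67.3, 98.7 and 96 in Lung and 2571, 2664 and 2523 in tumors 275, 316 and 317 (log2 4.89, SE 0.16, adjusted p = 1.6e-07). None of the 3 was called between the lines, by limma, DESeq2 or edgeR. Of all genes, limma called 46.1% between the cells and 30.4% between the allografts. All 3 still had an unadjusted limma p under 0.05 both between cells and between allografts (Ccnf and Fzr1 higher, Skp2 lower in 57SCLC).

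Of the apoptotic targets of E2F1, Hrk and Trp73 reached the filter on low values between the lines only through the 57SCLC samples. Their values are therefore given in place of a call between the lines. Hrk, a BH3-only gene, had 316, 299 and 364 in the flasks and 141, 136 and 165 in tumors 275, 316 and 317 against 13.5, 12 and 12.9 normalized counts in Lung (log2 3.43, SE 0.24, adjusted p = 5.6e-06 for the tumors). It lay between 0 and 9.38 in the 46LCNEC samples. Trp73, a classical E2F1 target of the p53 family, had 994, 882 and 935 in 57SCLC_cell, 989, 1317 and 1106 in tumors 275, 316 and 317, 659, 654 and 679 in Lung and at most 12.2 in any 46LCNEC sample.

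E2F4 and E2F5 also act with multicilin, the product of Mcidas, in the program of multiciliated cells. Of the 7 genes of this list, several reached the filter on low values only through the group where they were high (Gmnc, Mcidas and Cdc20b in 46LCNEC_cell against Lung, Gmnc, Mcidas and Ccno in 46LCNEC_allo, and Gmnc and Cdc20b in the 57SCLC groups), so that values are given in place of a count. Mcidas had 418, 411 and 301 normalized counts in 57SCLC_cell, 35.9, 42.5 and 62.4 in tumors 275, 316 and 317, 59.8, 45.9 and 71.4 in Lung and 0 in all 6 samples of 46LCNEC. Myb had 1460.2, 1658 and 1554 in tumors 275, 316 and 317 against 357, 458 and 373 in Lung (log2 1.98, SE 0.12, adjusted p = 2.4e-06). Foxj1, the master factor of motile cilia, had 4686, 5706 and 3833 in Lung, 259, 265 and 179 in tumors 275, 316 and 317 (log2 -4.34, SE 0.19, adjusted p = 5.8e-07) and 47.7, 33.7 and 59.7 in tumors 312, 319 and 321 (log2 -6.64, SE 0.25, adjusted p = 7.4e-06). Gmnc, which acts above Mcidas, had 105, 82.8 and 51.5 in Lung and 0 in the 12 other samples.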

How the data were processed

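The deposited signal values are normalized counts: the authors used Rbowtie2 to align the poly-A selected, paired reads of the 15 samples to GRCm39. featureCounts then assigned them to the genes of GENCODE release 27, and DESeq2 size factors scaled the sums. The handling of strand and of reads with several alignments is not given in the sources used here. In each sample 100% of non-zero values were whole multiples of 1 step (within 0.001 read), which gave back the reads. Depth (9480244 to 44876572 reads) limits the precision of low genes, and replicates measure the spread between dishes, flasks, tumors or lungs only.

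Comparisons used limma 3.58.1 (R 4.3.3) with a mean-variance trend on log2(normalized count + 1), which understates changes of low genes, in fits of 6 samples, keeping genes that reached 10 normalized counts in 3 or more. p-values were adjusted over all genes tested; the interaction used 12 samples. edgeR 4.0.16 and DESeq2 1.42.0 were run on the recovered reads. Other alternatives were upper quartile and total count scaling, no filter, pseudocounts of 0.1 and 5, an adjusted p of at most 0.05, all 15 samples in 1 model, each sample left out, and the letters A to C as a block. The length of the canonical transcript was added after seeing the data. The scripts were tested on simulated data. Coordinates, exons and starts came from GENCODE release 39 of GRCm39, which holds 54749 (98.9%) of the identifiers.

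All members are named, pocket proteins by value, up to 3 genes per list (smallest adjusted p in each allograft against Lung, and the largest called in the opposite direction) and the 3 genes most like a member (Pearson over 15 samples, mean of at least 100); Trp73, Mcidas, Gmnc, Cdc20b, Orc1, Rrm2, Lin54, Fzr1, genes named to list the few calls of a comparison, and those with a called interaction were picked once their values had been seen. The members and lists were chosen with earlier results of these data known. Results for some genes are not reported here.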

Additional observations from a re-analysis of the deposited data

Results flagged for a closer look

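No E2F or DP gene had a difference between the lines that passed the test of its change between cells and allografts, but 10 genes of the E2F lists did. They were 1 of 3 pocket protein genes, 1 of 6 MuvB and B-Myb genes, 3 of 28 G1/S genes and 1 of 14 G2 and mitosis genes. The others were 2 of 8 apoptotic targets and 2 of 5 tested genes of multiciliated cells, with 0 of 10 for PRC1.6 and 0 of 3 for turnover. Of all genes 17.5% were called, so the count does not set these lists as a whole apart. Values are from limma over 12 samples, as the difference in allografts minus that in cells (log2). Rbl2 had -1.20 (SE 0.31, adjusted p = 0.0098), with 1.51 between the cells and 0.31 between the allografts, and was called in 7 of 21 alternatives (adjusted p 0.00055 to 0.029). Mybl2 had 1.18 (SE 0.17, adjusted p = 0.00022), Cdc6 1.16 (SE 0.14, adjusted p = 8.0e-05), Mcm10 1.06 (SE 0.18, adjusted p = 0.00087), Uhrf1 1.01 (SE 0.17, adjusted p = 0.00069) and Cdk1 1.09 (SE 0.17, adjusted p = 0.00041). Of 21 alternatives, Mcm10 was called in 18 and Uhrf1 in 14, with values down to 0.95 and 0.91 when 1 sample was left out, and Mybl2, Cdc6 and Cdk1 in all 21. In each of these 5 the values for 46LCNEC were lower in the allografts than in the cells, as for Cdc6, with 1526, 1440.3 and 1699.8 normalized counts in the dishes and 657, 733 and 729 in tumors 312, 319 and 321, against 824, 909 and 759 in the flasks and 883, 824 and 822 in tumors 275, 316 and 317. Bcl2l11 had -1.58 (SE 0.20, adjusted p = 0.00010). Pmaip1 had 7.66 (SE 0.72, adjusted p = 9.1e-06), Mcidas -3.001 (SE 0.44, adjusted p = 0.00027) and Ccno -2.41 (SE 0.42, adjusted p = 0.00087). The first 2 of these rest on groups at 0 (Pmaip1 in 57SCLC_cell, Mcidas in both 46LCNEC groups), so that their fitted values depend on the pseudocount, and the adjusted p of Mcidas ranged from 3.9e-05 to 1.0 over its alternatives. Ccno had 8.44, 13.2 and 9.99 normalized counts in the dishes and 6.62, 4.21 and 5.53 in tumors 312, 319 and 321. Its value thus also rests on low counts in 46LCNEC, and Mcidas and Ccno reached the filter on low values only through 57SCLC. The part of host cells in the values of the 10 genes was not tested.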

How the results depend on the processing

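Of 820 values of members under alternatives other than a left-out sample, 803 kept their direction and side of the thresholds, 3 fell short of a call, 4 gained one and 10 turned their sign; of 600 with a sample left out, these were 573, 8, 3 and 16. None of the turned signs belonged to a called difference. Scaling by total counts called 4 members between the cells and 5 between the allografts of the lines in place of 2 and 3, through E2f8 and Tfdp2. It also moved the share of higher calls among all genes between the allografts from 53.1% to 64.2%. With a sample left out, the counts of members called ranged from 6 to 7 for 46LCNEC_cell against Lung, from 2 to 3 between the cells of the lines, from 1 (without tumor 316) to 3 between their allografts and from 0 to 1 (without tumor 319) between 46LCNEC_allo and 46LCNEC_cell, and were constant in the other comparisons. The letters A, B and C did not pair the samples (correlations of 0.0916, -0.0837 and -0.00619 between flask and dish of the same letter), and with the replicate letter as a block 2 members and 7797 genes in place of 7799 were called between the cells. No paired analysis was possible for the other comparisons because their samples share no numbers.

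The signs that turned were as follows. With scaling by total counts, E2f5 in 57SCLC_cell against Lung became 0.12, E2f4 in 57SCLC_allo against Lung 0.11, E2f1 between the cells of the lines 0.20, E2f4 and E2f5 between their allografts 0.014 and 0.018, and Tfdp1 and Tfdp2 between 46LCNEC_allo and 46LCNEC_cell -0.040 and -0.043. With upper quartile scaling, E2f5 in 57SCLC_cell against Lung became 0.040, Tfdp1 and Tfdp2 between 46LCNEC_allo and 46LCNEC_cell -0.069 and -0.071, and Rb1 between 57SCLC_allo and 57SCLC_cell -0.027, for which DESeq2 gave -0.16 and edgeR -0.13. With 1 sample left out, values ranged from -0.071 to 0.084 for E2f4, from -0.31 to 0.56 for Rb1 and from -0.015 to 0.25 for Rbl2 in 57SCLC_cell against Lung, from -0.12 to 0.068 for E2f1 between the cells of the lines and from -0.034 to 0.097 for E2f6 between their allografts. They ranged from -0.063 to 0.099 for Tfdp1 and from -0.15 to 0.19 for Tfdp2 between 46LCNEC_allo and 46LCNEC_cell, from -0.12 to 0.068 for E2f1, from -0.29 to 0.043 for E2f7 and from -0.25 to 0.63 for Rb1 between 57SCLC_allo and 57SCLC_cell, and from -0.062 to 0.28 for Tfdp2 and from -0.064 to 0.22 for Rbl1 in the interaction. The cause was not tested. Over all genes, leaving out 1 sample lowered the calls to 4045 from 6412 in 46LCNEC_allo against Lung, to 3307 from 5312 between the allografts of the lines, to 2328 from 3738 between 46LCNEC_allo and 46LCNEC_cell and to 1204 from 2842 between 57SCLC_allo and 57SCLC_cell. Upper quartile scaling and TMM moved the median of all genes by 0.15 and 0.13 in 46LCNEC_cell against Lung, and upper quartile scaling by 0.15 in 57SCLC_cell against Lung.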
